A study of Mus musculus with 12 samples.

Results

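The Janus kinases (JAKs) Jak1, Jak2 and Tyk2 and the signal transducers and activators of transcription (STATs) Stat2, Stat3, Stat4, Stat5a, Stat5b and Stat6 were followed in cultured stromal cells of the mouse small intestine. These 9 genes were taken by symbol from 23329 listed genes, and no measured value entered their choice. All 9 had counts in the libraries, and 8 of them (all but Stat4) were among the 13038 genes expressed highly enough to test. The study asked how embryonic and adult intestinal stroma respond to an inflammatory stimulus. Primary stromal cells of C57BL6/J mice, labelled intestinal myofibroblasts, were taken from E14.5 embryos or from adults and were used at passage 2 to 3. They received lipopolysaccharide (LPS) of Escherichia coli O111:B4 at a labelled 10 µg/µl, or phosphate-buffered saline (PBS), for 6 h. Each of the 4 groups of stage and treatment held 3 mRNAseq libraries. The study describes 3 independent cultures, made from 3 adult mice or with 6 pooled embryos for each culture. It does not state whether the LPS and PBS libraries came from the same cultures. The cultures are known to hold some CD45+CD11b+ leukocytes beside the stromal cells.

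JAKs are tyrosine kinases bound to the inner side of cytokine receptors. When a cytokine joins its receptor chains, the JAKs phosphorylate the receptor and the STATs docked on it, and the STATs pair, enter the nucleus and bind DNA. Type I interferon uses JAK1 and TYK2 and a complex called ISGF3, in which STAT2 is joined by IRF9 and a further STAT. The IL-6 family acts mainly through STAT3, several haematopoietic cytokines and growth hormone through JAK2 and STAT5, IL-4 and IL-13 through STAT6, and IL-12 through STAT4. Several of these genes are themselves transcribed more when cytokines are present.

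Levels are given in CPM, the count of a gene scaled to the library total with TMM factors. A library held between 18850224 and 32672370 gene counts, so that 3 counts, taken here as the smallest level told apart from 0, correspond to 0.0897 to 0.145 CPM. Differences were tested with edgeR's quasi-likelihood test, and a gene was called at a Benjamini-Hochberg adjusted p under 0.05 over all tested genes. LPS and PBS libraries with the same number in a stage deviated together from their group means, so the same test with these pairs as a block (the paired fit) is given wherever it changed a call. All 11 stromal markers were tested and summed to between 21575 and 42675 CPM per library, and replicate 2 had the lowest sum in each group. Epithelial, T and NK cell and B cell markers summed to at most 2.56 CPM. The 13 macrophage markers measured, which include Csf1r and Mrc1, were all above the 3-count floor in some library, and their sum differed widely between cultures. It reached 216 to 2243 CPM in embryonic PBS, 152 to 1500 CPM in embryonic LPS and 41.2 to 108 CPM in all adult libraries, with the highest values in embryonic culture 3. The markers did not move together with LPS. Within the embryonic pairs Ptprc was at 2.60 to 6.61-fold, Cx3cr1 at 0.0648 to 0.252-fold and Csf1r at 0.366 to 1.58-fold. The sum in LPS libraries is therefore not a plain measure of cell number. The endothelial markers were highest in adult culture 2, at 1824 CPM with PBS and 1749 CPM with LPS. Adult culture 3 followed at 389 and 361 CPM, and adult culture 1 held 26.3 and 21.3 CPM.

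After LPS, Stat2 and Jak2 rose in embryonic stroma, by a log2 fold change of 4.23 ± 0.65 and 1.74 ± 0.37 (SE, 3 libraries per group). No member was called in adult stroma with edgeR, where 4 of 8 had an unadjusted p under 0.05 and DESeq2 called 2 (Stat5a and Jak2). The paired fit called 4 members in each stage. Stat2, Jak2 and Tyk2 were called in both, with Jak1 in embryonic and Stat5a in adult stroma. No member was called lower with LPS in either fit, where 0.0767% of tested genes were lower in embryonic and 0.00767% in adult stroma, and 3.11% and 1.51% in the paired fit. Of all tested genes, 2.67% were called higher in embryonic stroma (9.43% in the paired fit) and 0.598% in adult stroma (4.69%). The median log2 fold change over the 8 tested members was 0.83 in embryonic and 0.51 in adult stroma, against -0.0003 and -0.007 over all tested genes. Stat3, Stat5b and Stat6 were called in neither fit in either stage.

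**Figure D1:**
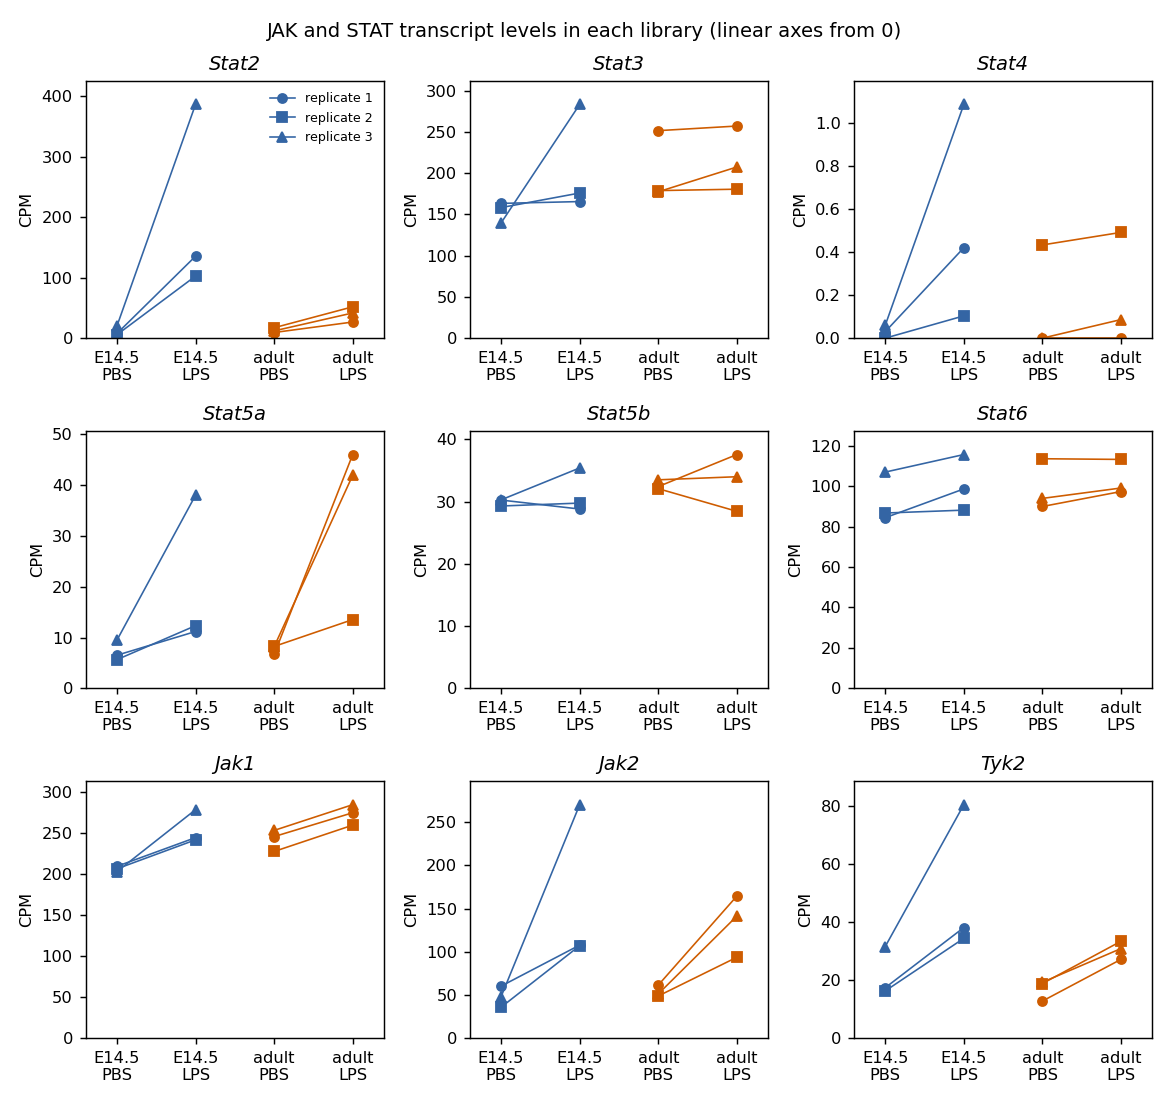
Level of each of the 9 genes in every library, in CPM on linear axes from 0, for embryonic (E14.5, blue) and adult (orange) stroma with PBS and LPS. Lines join the libraries of the same number within a stage. Stat2 in embryonic LPS lies between 103 and 386 CPM, above all other groups, while Stat5b stays between 28.4 and 37.6 CPM throughout.

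Stat2, on chromosome 10 (RefSeq, GRCm38.p6, 128270498 to 128292853, plus strand), encodes the STAT that is specific to ISGF3. Its level in the embryonic PBS libraries 1 to 3 was 7.62, 5.67 and 20.0 CPM, and in the matching LPS libraries 135, 103 and 386 CPM. In adult stroma it was 9.31, 17.2 and 12 CPM with PBS and 26.7, 51.8 and 41.7 CPM with LPS. The LPS libraries lay above the PBS libraries in both stages, and every embryonic LPS library lay above every adult LPS library. The embryonic PBS libraries differed by more than 3-fold among themselves, yet the fold within a pair was 17.8, 18.1 and 19.4. The adult pairs gave 2.87, 3.01 and 3.47-fold.

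The rise of Stat2 passed the test in embryonic stroma (edgeR adjusted p = 0.00822). It was lost only without embryonic PBS replicate 1, where the log2 fold change was 4.0 and edgeR's adjusted p 0.0596. The adult log2 fold change of 1.64 ± 0.59 (SE) was not called (edgeR adjusted p = 0.545). The paired fit gave 4.20 (95% interval 4.01 to 4.40) in embryonic and 1.64 (1.45 to 1.82) in adult stroma, with edgeR adjusted p of 8.39e-08 and 1.93e-05. The difference of Stat2's log2 fold change between the stages was 2.59 ± 0.82 (SE), with an unadjusted p of 0.00994 and an adjusted p of 1 in edgeR's test, and DESeq2 called no member there. In the paired fit it was 2.57 (95% interval 2.31 to 2.82) with an edgeR adjusted p of 0.000218, and Stat2 was the only member called, where 0.798% of all tested genes were called with a larger and 0.0460% with a smaller effect in embryonic stroma, and 0.00% without the pairs. Embryonic culture 3, with the highest macrophage marker sum, had the highest Stat2 level with and without LPS. The Stat2 fold in embryonic culture 1, whose macrophage marker sum was 216 CPM with PBS and 152 CPM with LPS, was 17.8. In culture 2, where the sum was higher with LPS (338 and 736 CPM), the Stat2 fold was 18.1, and in culture 3, with 2243 and 1500 CPM, it was 19.4. In bulk cultures such as these, more cells of a type and more RNA per cell cannot be told apart.

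The stretch of 250 bases before each listed RefSeq start site was searched on both strands for 3 short motifs in each member. These were the GAS element TTCNNNGAA, which STAT pairs bind, the ISRE core GAAANNGAAA, which ISGF3 binds, and the NF-kB motif. Among all 32851 RefSeq promoters of this length, 7.02% held the GAS letters, 2.98% the ISRE letters and 7.25% the NF-kB motif. Of the members, Stat2 held the ISRE letters (starting 222 bases before the start, read on the other strand), the second listed start of Stat4 held them (97 bases before), and the second start of Stat5a held the NF-kB motif (234 bases before). No GAS letters were found before any member. The promoters of the members called with LPS in both stages, and of Stat5a, are printed 5′ to 3′ in the direction of the gene, with the matched letters in capitals. They lie at chr10:128270248-128270497 (Stat2, plus strand), chr19:29251553-29251802 (Jak2, plus strand), chr9:21131276-21131525 (Tyk2, minus strand) and chr11:100860234-100860483 (Stat5a, second start, plus strand).
Stat2: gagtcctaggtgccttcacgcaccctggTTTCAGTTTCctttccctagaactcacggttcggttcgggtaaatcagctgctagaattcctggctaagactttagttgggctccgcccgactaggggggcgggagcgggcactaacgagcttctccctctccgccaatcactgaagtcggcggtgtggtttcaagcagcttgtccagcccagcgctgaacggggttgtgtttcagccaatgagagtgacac
Jak2: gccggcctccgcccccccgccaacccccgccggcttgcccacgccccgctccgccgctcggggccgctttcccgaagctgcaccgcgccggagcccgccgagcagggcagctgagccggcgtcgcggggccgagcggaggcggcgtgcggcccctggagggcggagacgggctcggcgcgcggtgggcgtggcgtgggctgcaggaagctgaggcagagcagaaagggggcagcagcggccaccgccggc
Tyk2: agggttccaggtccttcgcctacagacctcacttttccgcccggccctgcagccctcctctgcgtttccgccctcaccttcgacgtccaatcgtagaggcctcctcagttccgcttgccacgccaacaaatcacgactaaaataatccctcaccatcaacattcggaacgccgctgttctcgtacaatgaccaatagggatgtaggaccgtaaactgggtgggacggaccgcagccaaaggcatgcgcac
Stat5a: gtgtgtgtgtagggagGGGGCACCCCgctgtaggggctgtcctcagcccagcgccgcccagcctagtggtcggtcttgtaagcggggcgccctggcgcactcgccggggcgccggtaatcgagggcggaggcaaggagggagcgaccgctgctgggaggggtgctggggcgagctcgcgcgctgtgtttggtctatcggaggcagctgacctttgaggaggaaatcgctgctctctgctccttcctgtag
A match of letters is a description of the window and not a bound site, and Jak2 and Tyk2 had none of the 3 motifs there. A listed start can lie inside the gene bounds given for a member. The Tyk2 window overlaps the bounds of Tyk2, which reach 21131393, and the printed Stat5a window lies within those of Stat5a.

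Stat5a and Stat5b encode near-identical STAT5 proteins and lie next to each other on chromosome 11 (Stat5a at 100859351 to 100885169, plus strand, and Stat5b at 100780731 to 100859004, minus strand). Reads from stretches the genes share were dropped when only uniquely mapped reads were kept, so their levels are uncertain to that extent. Stat5a stood at 6.51, 5.64 and 9.48 CPM in embryonic PBS and at 11.2, 12.3 and 38.0 CPM in embryonic LPS. The adult values were 6.67, 8.24 and 8.18 CPM with PBS and 46.0, 13.5 and 42.0 CPM with LPS. The groups did not overlap in either stage. The folds within a pair spread from 1.72 to 4.01 in embryonic and from 1.64 to 6.90 in adult stroma.

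Stat5a's log2 fold change of 1.51 ± 0.54 (SE) in embryonic and 2.14 ± 0.55 (SE) in adult stroma was not called in edgeR's test (adjusted p = 0.260 and 0.172). The paired fit called it in adult stroma, at 1.99 (95% interval 1.08 to 2.90, edgeR adjusted p = 0.0255), and not in embryonic stroma (1.32, interval 0.44 to 2.21, adjusted p = 0.0615). The adult call was lost without adult culture 1 or 3 in either treatment, where edgeR's adjusted p lay between 0.193 and 0.208 and the log2 fold change between 1.56 and 1.78. Adult culture 2, the one with the highest endothelial marker sum, gave the lowest Stat5a fold, and without it the paired log2 fold change was 2.57. Adult culture 3, with the next highest sum, gave a Stat5a fold of 5.13. The part of those cells was not tested. The Stat5a effect was higher in adult than in embryonic stroma by a log2 difference of 0.63 without the pairs. In the paired fit the embryonic minus the adult effect was -0.66. Its 95% interval reached from -1.91 to 0.58, so a difference in either direction remains within it. Per kilobase of exon, Stat5a stood at 0.269 to 0.437 of the Stat5b level in all PBS libraries, at 0.542 to 1.5 in embryonic LPS and at 0.664 to 1.72 in adult LPS.

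Stat5b was at 30.3, 29.3 and 30.3 CPM in embryonic PBS and 28.8, 29.8 and 35.4 CPM in embryonic LPS. In adult stroma it was at 32.4, 32.1 and 33.5 CPM with PBS and at 37.6, 28.4 and 34.0 CPM with LPS. The groups overlapped in both stages. The paired 95% interval of the log2 fold change reached from -0.17 to 0.29 in embryonic and from -0.21 to 0.25 in adult stroma.

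Stat3, which carries the signal of the IL-6 family, was at 163, 158 and 140 CPM in embryonic PBS and 166, 176 and 283 CPM in embryonic LPS. The adult libraries held 252, 179 and 177 CPM with PBS and 257, 181 and 207 CPM with LPS. The LPS libraries lay above the PBS libraries in embryonic stroma and overlapped with them in adult stroma. The fold within embryonic pair 3 was 2.03, and the other 5 pairs gave between 1.01 and 1.17. The paired log2 fold change was 0.40 (95% interval -0.005 to 0.80, edgeR adjusted p = 0.191) in embryonic and 0.09 (-0.31 to 0.49, adjusted p = 0.869) in adult stroma.

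Stat6, the STAT of IL-4 and IL-13, was measured at 84.5, 86.8 and 107 CPM in embryonic PBS, 98.7, 88.2 and 116 CPM in embryonic LPS, 90.0, 114 and 94.0 CPM in adult PBS and 97.4, 113 and 99.2 CPM in adult LPS. All 4 groups overlapped. The paired interval of the log2 fold change was -0.03 to 0.27 in embryonic and -0.09 to 0.22 in adult stroma.

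Stat4, the STAT of IL-12 and mainly a gene of T and NK cells, was near the limit of detection and was not tested. Its counts were 1, 0 and 2 in embryonic PBS and 12, 3 and 28 in embryonic LPS. Adult libraries held 0, 9 and 0 counts with PBS and 0, 16 and 2 counts with LPS. The ratio of the pooled embryonic counts, 43 with LPS to 3 with PBS, was 17.1 after scaling to depth, with an exact binomial 95% interval from 5.48 to 86.3 that covers counting error only. In adult stroma, counts over 3 came only from culture 2 in both treatments, the culture with the highest endothelial marker sum. T and NK cell markers summed to 0.274 to 2.56 CPM over the 12 libraries, and the part of such cells in these counts was not tested. Stat4 shares 1033 exon bases with Gm28177 on the same strand, so reads there could belong to either.

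Of the kinases, Jak2 (chromosome 19, 29251803 to 29313095, plus strand) serves the receptors of growth hormone, interferon gamma and many colony-stimulating factors. Its level was 60.4, 36.1 and 48.3 CPM in embryonic PBS and 108, 107 and 270 CPM in embryonic LPS. In adult stroma it was 61.6, 49.0 and 51.4 CPM with PBS and 165, 93.8 and 141 CPM with LPS. The groups did not overlap in either stage. The folds within a pair were 1.79, 2.97 and 5.60 in embryonic and 2.67, 1.91 and 2.75 in adult stroma.

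The Jak2 rise was called in embryonic stroma (edgeR adjusted p = 0.0351), but it passed in only 3 of the 12 fits that left out 1 library: those without embryonic LPS replicate 1, embryonic LPS replicate 2 or adult LPS replicate 2 (adjusted p = 0.0210, 0.0231 and 0.0404). In the other 9 the log2 fold change was 1.12 to 1.92 and edgeR's adjusted p 0.0512 to 0.11. The adult log2 fold change of Jak2 was 1.30 ± 0.37 (SE, edgeR adjusted p = 0.252). The paired fit gave 1.63 (95% interval 1.00 to 2.26, edgeR adjusted p = 0.00717) in embryonic and 1.27 (0.66 to 1.89, adjusted p = 0.0320) in adult stroma. In embryonic stroma the paired call held without any 1 of the 12 libraries. In adult stroma it was lost without any 1 of the 6 adult libraries (log2 fold change 1.18 to 1.44, edgeR adjusted p 0.0732 to 0.219). The embryonic pair with the lowest macrophage marker sum with PBS (216 CPM) had the lowest Jak2 fold and the pair with the highest (2243 CPM) the highest, and the part of these cells in the result was not tested.

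Tyk2 (chromosome 9, 21104068 to 21131393, minus strand), the kinase of the type I interferon and IL-12 receptors, was at 17.4, 16.3 and 31.6 CPM in embryonic PBS and 38.2, 34.5 and 80.5 CPM in embryonic LPS. The adult values were 12.9, 18.9 and 19.3 CPM with PBS and 27.2, 33.5 and 30.9 CPM with LPS. LPS libraries lay above PBS libraries in both stages, and embryonic LPS above adult LPS. The folds were 2.19, 2.11 and 2.54 within the embryonic and 2.12, 1.77 and 1.60 within the adult pairs. Tyk2 was not called without the pairs (edgeR adjusted p = 0.129 in embryonic and 0.768 in adult stroma). The paired fit called it in both, at a log2 fold change of 1.19 (95% interval 0.95 to 1.42, edgeR adjusted p = 0.000196) and 0.86 (0.62 to 1.1, adjusted p = 0.00254), also without any 1 library. The difference between the stages was not called (0.33, interval -0.003 to 0.66, paired edgeR adjusted p = 0.563).

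Jak1 (chromosome 4, 101151974 to 101265282, minus strand), which serves interferon, IL-6 family and common gamma chain receptors, was at 209, 206 and 203 CPM in embryonic PBS and 244, 241 and 278 CPM in embryonic LPS. In adult stroma it was at 245, 227 and 253 CPM with PBS and at 274, 259 and 284 CPM with LPS. The groups did not overlap in either stage, though the change was small. It came to 1.17, 1.17 and 1.37-fold in the embryonic and 1.12, 1.14 and 1.12-fold in the adult pairs. The paired fit called Jak1 in embryonic stroma, at a log2 fold change of 0.30 (95% interval 0.14 to 0.46, edgeR adjusted p = 0.0254 against 0.154 unpaired), but in only 2 of the 12 paired fits that left out 1 library, those without embryonic PBS or LPS replicate 2. In the other 10 the log2 fold change of Jak1 was 0.20 to 0.34 and edgeR's adjusted p 0.0523 to 0.128. The paired adult log2 fold change was 0.17 (0.02 to 0.33, edgeR adjusted p = 0.228).

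**Figure D2:**
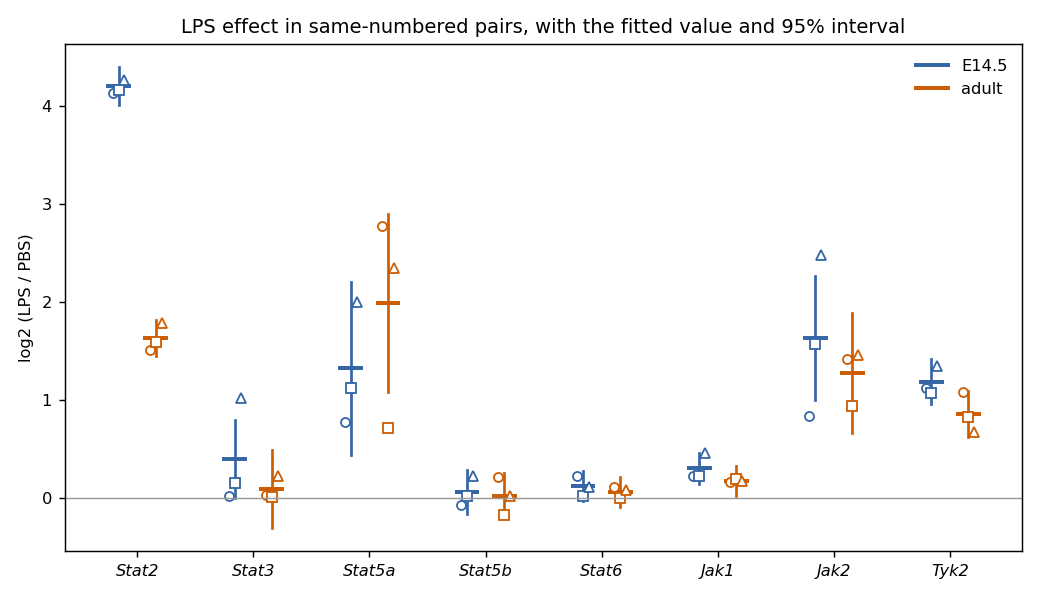
Log2 ratio of LPS to PBS for the 8 tested genes in embryonic (E14.5, blue) and adult (orange) stroma. Open symbols are the 3 same-numbered pairs (circle 1, square 2, triangle 3), and thick marks with lines are the paired fit and its 95% interval. The intervals of Stat2 are 4.01 to 4.40 and 1.45 to 1.82, while those of the other 7 genes overlap between the stages.

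Libraries with and without LPS did not overlap, the LPS libraries being higher, for 6 of the 8 tested members in embryonic stroma (all but Stat5b and Stat6) and for 5 of 8 in adult stroma (the same without Stat3), against 7.58% and 9.10% of all tested genes. In embryonic stroma 7 of the 8 members had their highest fold in culture 3, and in adult stroma 5 of 8 had their lowest in culture 2. These cultures held the highest macrophage and the highest endothelial marker sums, and the part of those cells in the folds was not tested. The share of all tested genes with the same order of cultures was not computed, so the order is not shown to be particular to the members.

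Between the stages, edgeR and DESeq2 called no member with PBS, where edgeR called 1.51% of tested genes higher and 2.57% lower in embryonic stroma and 1 member (Jak1) had an unadjusted p under 0.05. Jak1, Stat3 and Stat5b were lower in every embryonic than in every adult PBS library, against 11.9% of all tested genes. Their log2 differences of -0.23, -0.40 and -0.13 were small and not called (edgeR adjusted p = 0.197 and 0.379 for Jak1 and Stat3). Stat2 differed by -0.21 between the PBS groups, less than the spread within the embryonic group. With LPS, Stat2 was higher in embryonic stroma by 2.38 ± 0.59 (SE) on the log2 scale (edgeR adjusted p = 0.0480), and it was the only member called, where 3.04% of all tested genes were called higher and 2.27% lower. This call held in only 3 of the 12 fits with 1 library left out (without embryonic PBS replicate 2, embryonic PBS replicate 3 or embryonic LPS replicate 2), and in the other 9 the log2 difference of Stat2 was 1.55 to 2.61 and edgeR's adjusted p 0.0545 to 0.163. Tyk2 was also higher without overlap, by 0.74, and was not called (edgeR adjusted p = 0.250), and 13.4% of all tested genes were higher without overlap there.

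Set beside each other per kilobase of exon, the members spanned a wide range of levels. In embryonic PBS, Jak1 was highest at 42.0 CPM per kb, followed by Stat3 (24.7) and Stat6 (24.6), whose libraries overlapped, then Jak2 (9.59). Stat5b (5.41), Tyk2 (3.92), Stat2 (2.52) and Stat5a (1.82) followed, each overlapping with the next, and Stat4 was at 0.00952 CPM per kb. The adult PBS libraries had the same order. With LPS, embryonic Stat2 reached 47.3 CPM per kb, and its libraries overlapped with those of Jak1 (51.9) above it and Stat3 (33.4) below it. In adult LPS, Jak1 was highest at 55.6 CPM per kb, Stat3 (34.5), Stat6 (27.4) and Jak2 (26.5) overlapped in that order, and Stat2 was at 9.11.

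Stat2 made up 4.16% ± 2.64 (SD, n = 3) of the summed level per kilobase of the 6 listed STATs in embryonic PBS and 36.8% ± 10.7 (SD, n = 3) in embryonic LPS. In adult stroma its share was 4.21% ± 1.33 with PBS and 10.8% ± 4.10 with LPS. The summed level itself went from 56.4 to 63.2 in embryonic PBS up to 83.5 to 180 CPM per kb in embryonic LPS, while adult libraries held 64.2 to 73.9 with PBS and 79.5 to 91.5 with LPS. Among the 3 kinases, Jak1 held 75.8% ± 4.19 of the sum in embryonic PBS and 57.8% ± 10.7 in embryonic LPS, and 78.1% ± 0.798 and 63.7% ± 4.22 in the adult groups. Jak2 held 17.2% ± 3.52 and 32.8% ± 8.89 in embryonic stroma and 17.0% ± 1.73 and 29.9% ± 5.50 in adult stroma. The shares of Stat2 and Jak2 did not overlap between LPS and PBS in either stage.

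**Figure D3:**
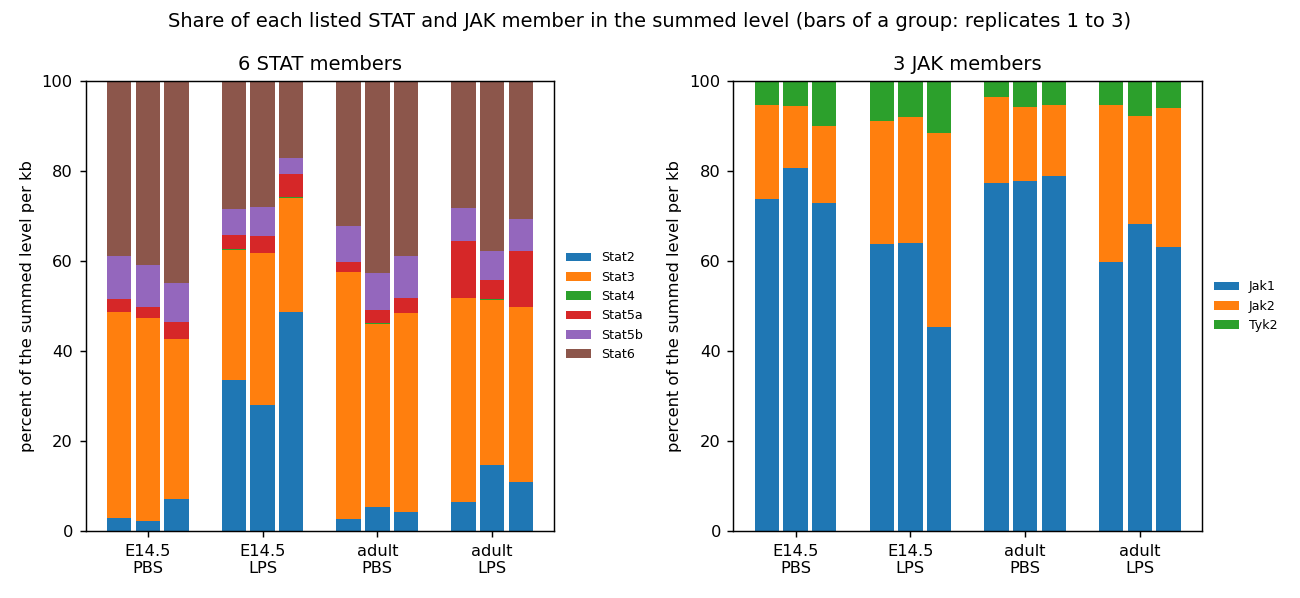
Share of each listed gene in the summed level per kilobase of exon (percent, 1 bar per library, replicates 1 to 3 from left to right in each group) for the 6 STATs on the left and the 3 kinases on the right. Stat2 takes 28% to 48.7% of the STAT sum in embryonic LPS and 6.62% to 14.8% in adult LPS. Stat4 is too low to be seen.

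The genes whose products lie before and after the JAKs and STATs were taken from lists written from general knowledge. A place on a target list does not show that the named factor acted on the gene here, which was not tested. A listed gene could pass the 0.5 CPM filter through its LPS libraries alone, which favours a rise in the counts and medians of a list. Among the targets of ISGF3, 13 of 16 were called higher in embryonic stroma, all 16 in the paired fit, and 4 and 14 of 16 in adult stroma, with none lower. Over the list the log2 fold changes had a median of 6.19 (embryonic) and 2.24 (adult). The paired fit called a larger LPS effect in embryonic stroma for 11 of the 16. Without the pairs edgeR called 0 of 16, with 9 at an unadjusted p under 0.05, and DESeq2 called 7. Ifit1, an interferon-induced protein that binds viral RNA, rose from 1.18 ± 1.03 to 722 ± 654 CPM (SD, n = 3) in embryonic and from 2.86 ± 0.643 to 73.6 ± 19.8 CPM in adult stroma (edgeR adjusted p = 0.00151 and 0.0216). Its fold within a pair was 583 to 625 in embryonic and 15.6 to 34.5 in adult stroma. Rsad2, which encodes the antiviral enzyme viperin, had log2 fold changes of 10.47 and 6.68 (edgeR adjusted p = 0.00228 and 0.0215), and its neighbour Cmpk2, a mitochondrial nucleotide kinase, 9.90 and 6.46 (adjusted p = 0.00235 and 0.0291). Ifit2, a relative of Ifit1, rose in embryonic stroma (5.59, edgeR adjusted p = 0.00188) and was not called in adult stroma (1.34, adjusted p = 0.617, paired adjusted p = 0.0754). Irf9, the DNA-binding partner of STAT2, was picked for its role after its values had been seen: it went from 10.2 ± 7.83 to 56.3 ± 28.1 CPM in embryonic stroma (edgeR adjusted p = 0.0310) and from 12.3 ± 2.19 to 23.7 ± 4.97 CPM in adult stroma (paired edgeR adjusted p = 0.00908).

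Among the 19 inhibitors of the pathway, all tested, 3 rose in embryonic stroma (5 in the paired fit) and none in adult stroma (3 in the paired fit, 1 by DESeq2, and 5 at an unadjusted p under 0.05), and the medians were 0.04 and 0.08. Usp18, which blocks the type I interferon receptor, went from 1.36 ± 1.17 to 188 ± 155 CPM in embryonic stroma (edgeR adjusted p = 0.00228) and from 2.07 ± 0.377 to 14.9 ± 5.49 CPM in adult stroma (adjusted p = 0.133, paired 0.000302). It was the only inhibitor whose LPS effect differed between the stages in the paired fit (log2 difference 4.33, edgeR adjusted p = 0.00119). Socs1, which inhibits the JAKs directly, and Socs3, which acts at receptors of the IL-6 family, rose in embryonic stroma by 4.66 and 5.66 on the log2 scale (edgeR adjusted p = 0.00598 and 0.0107). In adult stroma they were at 1.47 and 2.09 and were not called in either fit (paired edgeR adjusted p = 0.210 and 0.131). Cish, a target of STAT5 that damps its signal, was called in the paired fit alone, at 1.65 in embryonic and 1.04 in adult stroma (edgeR adjusted p = 0.00351 and 0.0440), and so was Ptpn2, a phosphatase of JAKs and STATs, at 0.76 and 0.58 (adjusted p = 0.00857 and 0.0425).

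Of the 32 listed cytokines that signal through JAKs and STATs, 17 were expressed highly enough to test. In embryonic stroma 8 of 17 rose (13 in the paired fit) and in adult stroma 3 (10 in the paired fit), with none lower, and the median log2 fold changes were 2.90 and 3.05, the latter 2.19 where the 2 genes at 0 in all adult PBS libraries are set to their lowest possible fold. Some of the 17, among them Csf2, Il12b, Il23a and Il27, exceeded 0.5 CPM in all libraries of a group only with LPS. Such genes could hardly be called lower, and they raise these counts and medians. Tslp, a cytokine of epithelial and stromal cells, rose 3.74 to 10.9-fold within the embryonic and 17.0 to 24.5-fold within the adult pairs (edgeR adjusted p = 0.0108 and 0.00683). Csf2, which encodes GM-CSF and signals through JAK2 and STAT5, had no counts in embryonic PBS and 1 in adult PBS. With LPS it was at least 131-fold higher than the 3-count floor, averaged over the group, in embryonic stroma, and 2498-fold higher in adult stroma by pooled counts (exact binomial 95% interval 448 to 98697, edgeR adjusted p = 0.00326 and 0.00683). Il23a, a subunit of IL-23, reached 7.59 ± 7.90 CPM in embryonic and 23.4 ± 15.1 CPM in adult LPS, from 0.0809 ± 0.0638 and 0.105 ± 0.102 CPM with PBS (edgeR adjusted p = 0.0106 and 0.0131). Il12b, the subunit shared by IL-12 and IL-23, reached 204 to 2552 CPM in embryonic LPS (adjusted p = 0.00228) and 2.61 to 10.2 CPM in adult LPS, from 1 count in the 3 adult PBS libraries (edgeR adjusted p = 0.0627, paired 6.02e-05). Il27, made mainly by macrophages and dendritic cells, had 3 counts in all in embryonic PBS and none in adult PBS. With LPS it was at 6.87 to 127 CPM in embryonic stroma and at 0.615 to 1.56 CPM in adult stroma, the latter at least 9.50-fold above the group's floor (edgeR adjusted p = 0.00928 and 0.294, paired 0.00184 in adult stroma). Macrophage markers summed to more in every embryonic than in every adult library. Dendritic cell markers, of which 2 of 6 were tested, summed to 5.30 to 19.5 CPM, with the highest sum in an adult LPS library. The part of either cell type in Il12b and Il27 was not tested.

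Of 38 listed receptor chains 26 were tested, of which 3 rose in embryonic stroma (11 in the paired fit, with 1 lower) and 1 in adult stroma (9 in the paired fit), and the medians were 0.26 and 0.38. Both chains of the type I interferon receptor rose in adult stroma: Ifnar1 from 86.0 ± 4.57 to 164 ± 21.7 CPM (edgeR adjusted p = 0.0101) and Ifnar2 from 40.6 ± 1.59 to 75.4 ± 7.80 CPM, the latter in the paired fit alone (0.000961 against 0.0740). In embryonic stroma their paired log2 fold changes were 0.45 and 0.51 (edgeR adjusted p = 0.00474 and 0.00726, and 0.111 and 0.238 unpaired). The effect on Ifnar1 was lower in embryonic than in adult stroma by 0.48 on the log2 scale, which was not called (paired edgeR adjusted p = 0.0964). Ifngr2, a chain of the interferon gamma receptor that binds JAK2, rose from 173 ± 15.4 to 260 ± 16.8 CPM in embryonic stroma (edgeR adjusted p = 0.0108) and from 147 ± 6.87 to 192 ± 7.07 CPM in adult stroma (adjusted p = 0.158, paired 0.00771). Osmr, the oncostatin M receptor, and Il15ra, which presents IL-15, rose in embryonic stroma by 2.76 and 4.87 on the log2 scale (edgeR adjusted p = 0.0211 and 0.0177), and in adult stroma by 1.24 and 2.71 in the paired fit alone (adjusted p = 0.0370 and 0.0107). The only chain called lower was Il7r, the IL-7 receptor, picked after its values had been seen, at -1.37 in the embryonic paired fit (edgeR adjusted p = 0.0491). It was low, with 101 counts in all in embryonic PBS and 33 in embryonic LPS. Other chains were also lower in every embryonic pair without a call, such as Il21r (0.175 to 0.734-fold) and Il6ra (0.467 to 0.869-fold).

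Among the targets of the other STATs, for STAT3 6 of 15 tested targets rose in embryonic stroma (12 in the paired fit) and 0 in adult stroma (9 in the paired fit, 4 by DESeq2, and 8 at an unadjusted p under 0.05). Bcl3, an NF-kB regulator, went from 1.87 ± 0.685 to 35.9 ± 23.0 CPM in embryonic (edgeR adjusted p = 0.00863) and from 3.17 ± 0.916 to 32.4 ± 24.5 CPM in adult stroma (adjusted p = 0.0512, paired 0.00288). Junb, an AP-1 subunit, rose by 1.76 in embryonic stroma (edgeR adjusted p = 0.00528) and by 1.22 in the adult paired fit (adjusted p = 0.0362), and Myc was called in the adult paired fit alone (1.13, edgeR adjusted p = 0.0338). For STAT5, edgeR called 0 of 7 targets without the pairs in either stage (2 and 1 at an unadjusted p under 0.05, and 1 and 0 by DESeq2), and 3 in embryonic and 1 in adult stroma with them. Pim1, a survival kinase, was among these in embryonic stroma (1.13, paired edgeR adjusted p = 0.0157), while Socs2 (0.56, adjusted p = 0.0687) was not, and Bcl2l1 was at 0.12 in embryonic and 0.31 in adult stroma (paired edgeR adjusted p = 0.566 and 0.195). For STAT6, 4 of 9 listed targets were tested, and 1 rose in embryonic stroma (2 in the paired fit) and 0 in adult stroma in either fit (0 by DESeq2, and 1 at an unadjusted p under 0.05). The called ones were Socs1 and, with the pairs, Il4ra, the receptor of IL-4 (0.99, edgeR adjusted p = 0.0164), while Pparg stood at -0.24 and -0.68 in the paired fit (adjusted p = 0.657 and 0.178). Many of these targets are also known to respond to NF-kB, and some are members of more than 1 list.

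**Figure D4:**
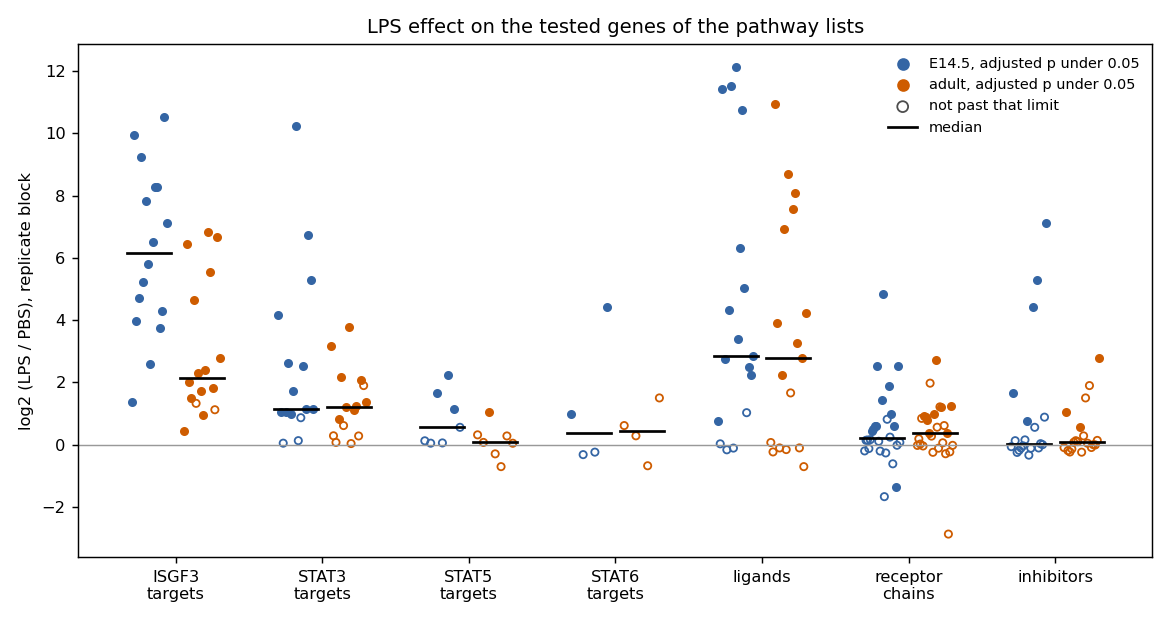
Log2 ratio of LPS to PBS in the paired fit for every tested gene of 7 pathway lists, in embryonic (E14.5, blue) and adult (orange) stroma. Filled points were called at an adjusted p under 0.05, and black bars are the medians of each list. The median of the ISGF3 targets is 6.15 in embryonic and 2.15 in adult stroma, and those of the inhibitors are 0.03 and 0.08.

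Across the 12 libraries, the genes whose log2 CPM followed a member most closely were listed by Pearson's r, as a description without a test, since the libraries share cultures and treatment. Stat2 was followed by the interferon-inducible GTPase genes Igtp (r = 0.993) and Irgm2 (0.991) and by Ddx58 (0.990), the RIG-I RNA sensor. Tyk2 was followed by the immunoproteasome subunits Psmb8 (0.973) and Psmb10 (0.969) and by Irf2 (0.967). Jak2 was followed by Traf2 (0.978), an adaptor of TNF receptors, the NF-kB subunit gene Nfkb2 (0.964) and the protease gene Adamts4 (0.960). Stat5a went with Rbbp8 (0.929), Rad52 (0.926) and Gfpt2 (0.922), and Jak1 with Angptl4 (0.958), Map3k6 (0.941) and Micall2 (0.938). The closest genes of the less variable members reached lower values, with Nr4a3 (0.890), Zbtb7a (0.874) and Tnfaip6 (0.869) for Stat3 and Atf5 (0.835), Sbds (0.823) and Vps13d (0.815) for Stat5b. Stat6 went with Wdr11 (0.933) and Hat1 (0.914). Between members, the highest values were 0.934 for Stat2 with Tyk2 and 0.890 for Stat5a with Jak2.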

How the data were processed

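Stranded, poly(A)-selected mRNAseq was made from 12 libraries, 3 in each group. The authors trimmed the reads, mapped them with STAR to GRCm38.p6 (mm10 in the submitters' processing notes), discarded reads with several positions or over 1 mismatch, and deposited the read counts of each gene as raw values. Here the column for the strand of the transcripts was used, and the opposite strand held 1.14% to 1.98% of the gene counts. Rows that name no gene were left out. Groups and replicate numbers are those of the labels.

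The tests used edgeR 4.0.16 in R 4.3.3 (quasi-likelihood, two-sided, TMM factors 0.899 to 1.1, 1 model of the 4 groups). Following the study's methods, a gene was tested if all libraries of any group exceeded 0.5 CPM. Adjustment was by Benjamini-Hochberg over 13038 genes, and standard errors are the log2 fold change divided by the square root of F. Log2 CPM used a prior count of 2. Exon lengths came from GENCODE, and coordinates and promoters from RefSeq, where all 9 members matched. Plots used matplotlib 3.10.9 (Python 3.11.15). DESeq2 1.42.0, other scalings, filters, thresholds and strands, blocks, and left-out libraries were alternatives. The script was tested on simulated counts. Limits set by 3 counts cover counting error only, and replicates differed by more than counting noise.

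No source states that an LPS and a PBS library of one number share a culture. The pairing rests on the labels' numbers and on the deviations from the group means, whose correlation was 0.610 to 0.850 in all 6 same-numbered pairs and -0.749 to 0.0218 in the 12 others. Deviations cancel out within a group, so high values in the same-numbered pairs lower the others, which give no separate support. Named genes are all members, the 3 of each other list with the lowest p in either stage, and the 3 most correlated with each member. Members, lists and tests were chosen with earlier results of these data known. A few genes that these rules or the study name are not reported here, and shares among STATs cover the 6 listed.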

Additional observations from a re-analysis of the deposited data

Results flagged for a closer look

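The LPS effect on Stat2 differed between embryonic and adult stroma by 2.57 on the log2 scale in the fit with same-numbered libraries paired (edgeR's quasi-likelihood test, Benjamini-Hochberg adjusted p = 0.000218), and every embryonic pair (17.8 to 19.4-fold) lay above every adult pair (2.87 to 3.47-fold). Without the pairs the difference was 2.59 and the adjusted p 1.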

How the results depend on the processing

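Without TMM factors, which moved the median log2 fold change of all genes by -0.13 in embryonic stroma, the LPS effect of Stat5b became -0.075 in embryonic and -0.021 in adult stroma and that of Stat6 -0.025 in embryonic stroma, and their stage differences -0.054 and -0.040. None of these was called in any fit. The embryonic LPS effect was called for 4 members by DESeq2 (Tyk2 and Jak1 added) and for 4 with the replicate block within each stage, for 1 (Stat2) at an adjusted p under 0.01 or with a log2 fold change of at least 2, and for 0 with only the groups compared (edgeR, Stat2 adjusted p = 0.142). The adult effect was called for 2 members by DESeq2, for 4 with that replicate block and for 1 (Jak2) with only the groups compared, and the stage difference for 1 (Stat2) with the replicate block. Embryonic against adult with LPS, Stat2 was not called (0 members) without TMM factors, with no filter on low counts, with edgeR's own filter, at an adjusted p under 0.01 or with only the groups compared. Over all genes these settings called 661, 576, 636, 96 and 70, in that order. In the replicate block fit of each stage alone, added after the data were seen as were the paired fits with a library left out, Jak1 was not called (adjusted p = 0.187). A block of the replicate number across stages does not pair samples (same-number correlation -0.306 to -0.00220). It called 3, 0 and 0 members for the embryonic, adult and stage difference effects and 1 between stages with LPS, against 380, 109 and 0 of all genes and 1059 between stages with LPS. Over all genes, edgeR called 358, 79 and 0 for these 3 effects, against 1635, 808 and 110 with the replicate block within each stage (710 and 1808 with each stage alone) and 684, 294 and 25 by DESeq2, and 532 and 692 between stages with PBS and LPS, against 1552 and 1704 by DESeq2. With only the groups compared it called 4 in embryonic and 227 in adult stroma, and 173 and 70 between stages. For the embryonic effect edgeR called 119 genes at an adjusted p under 0.01. It called 251 at an adjusted p under 0.05 with a log2 fold change of at least 2 in either direction.

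With 1 library left out, 0 to 2 members were called in embryonic stroma, 0 to 2 in adult stroma (Stat5a and Jak2 without embryonic LPS replicate 3, adjusted p = 0.0496 and 0.0394) and 0 to 1 between stages with LPS, and 2 to 4 in adult stroma in the paired fit. Over all genes the same fits called 95 to 471 in embryonic and 4 to 145 in adult stroma. They called 132 to 814 between stages with LPS, and 248 to 1231 in adult stroma in the paired fit. Paired embryonic Stat5a was called without adult PBS or LPS replicate 2 (adjusted p = 0.0153). Log2 values of members that were not called changed sign as follows. LPS effects ranged in embryonic stroma from -0.061 to 0.12 (Stat5b, paired -0.050 to 0.12) and -0.016 to 0.24 (Stat6), and in adult stroma from -0.064 to 0.27 (Stat3), -0.067 to 0.13 (Stat5b, paired -0.077 to 0.12) and -0.016 to 0.17 (Stat6). Stage differences ranged from -0.079 to 0.13 (Stat5b, paired -0.060 to 0.14), -0.063 to 0.18 (Stat6, paired -0.023 to 0.11), -0.17 to 0.67 (Jak2, paired -0.088 to 0.76), -0.12 to 0.75 (Tyk2) and, paired, -0.018 to 0.50 (Stat3). Embryonic minus adult values with PBS ranged from -0.95 to 0.10 (Stat2), -0.34 to 0.048 (Stat5a), -0.21 to 0.014 (Stat6), -0.36 to 0.0018 (Jak2) and -0.012 to 0.52 (Tyk2). With LPS they ranged from -0.36 to 0.11 (Stat3), -0.21 to 0.0081 (Stat5b), -0.16 to 0.050 (Stat6) and -0.33 to 0.50 (Jak2). Outside the left-out libraries, 404 of the 432 single-gene values kept their direction and side of the threshold, 13 passed it, 10 no longer did and 5 changed sign. The causes were not tested.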
